A study of Homo sapiens with 6 samples.

Results

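The genes described here were 57 protein-coding genes with RNA in wild-type (WT) LN229 glioblastoma cells and almost none in PARP3-/- LN229 cells. They were selected on the measured counts: at least 30 reads in each of the 3 WT libraries and at most 3 in each of the 3 PARP3-/- libraries. Without regard to family 68 genes met the count limits, and 11 were left out by name, IGFBP2 as a single gene and the others because they belong to listed families (GABRG3, KCNA2, KCNK5, MAGEC2, PAGE5, SEMA4D, ZNF208, ZNF239, ZNF536 and ZNF648). The 57 were 0.503% of the 11338 protein-coding genes that reached 30 counts in each WT library after the same families were left out, among 16508 protein-coding genes and 33841 genes listed in all. Because the limits were set on WT against PARP3-/-, the size of that difference is given as a description and without a test.

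LN229 is an established human glioblastoma line, and the WT group is its unmodified parental form. PARP3 is a mono-ADP-ribosyltransferase of chromatin and DNA breaks, and the PARP3-/- cells were made by disrupting its gene with a CRISPR/Cas9 nickase pair and growing out single cells. The mutant libraries therefore come from clonal cells, and differences that arose when the clone was founded cannot be told apart from the loss of PARP3. Total RNA of 3 biological replicates per genotype was sequenced, and the libraries held 29692065 to 46010369 counts on genes. PARP3 itself had 1273, 942 and 995 counts in WT and 574, 1004 and 736 in PARP3-/-, a log2 fold change of -0.42 ± 0.18 (SE) that was not called with edgeR (adjusted p = 0.307, 0.0469 with the replicate number as a block). Counts over the whole gene include exons outside the disrupted part, so they do not test the genotype. Of 24 cell type markers, 23 were listed. The glioma markers VIM, NES, CD44, SOX2 and EGFR had at least 876 counts in every library, and GFAP had 1 to 17. Of the markers of other cells, PTPRC, CD14, CDH5, EPCAM, CDH1 and RBFOX3 had at most 4 counts. Others from the same lists had more. Epithelial KRT18 had at least 2927 counts in every library, and fibroblast LUM, DCN and PDGFRA at least 563, 186 and 170. Neuronal TUBB3 and SYP had at least 147 and 71.

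A gene that is silent in some cells and active in others can be held off at its promoter, among other ways. Methylation of histone H3 at lysine 9, to which G9a (EHMT2) contributes, Polycomb methylation at lysine 27 and methylation of CpG dinucleotides in DNA are the best known marks of this kind. Such silencing is a feature of lineage genes, of testis-restricted genes and of genes on the X chromosome, and it can be inherited through cell division.

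Promoters differ most plainly in how many CpG dinucleotides they hold, and the 250 bases before the RefSeq start site are shown for FAM213A and SNX10, the genes with most RNA in WT, and for PPP1R26 and MAT1A, which had the most and the fewest CpG. Sequences are from RefSeq (GRCh38.p14), written 5′ to 3′ with CpG in capitals. They lie at chr10:80408301-80408550 on the plus strand (FAM213A, listed as PRXL2A), chr7:26291612-26291861 on the plus strand, chr9:135479532-135479781 on the plus strand and chr10:80289659-80289908 on the minus strand. The genes as counted, from Ensembl, can start elsewhere: the RefSeq start lies 722 bases inside the counted FAM213A and 703 bases inside PPP1R26, so those windows fall wholly within the counted gene, while the MAT1A window overlaps it by 26 bases and the SNX10 window lies outside it.
FAM213A: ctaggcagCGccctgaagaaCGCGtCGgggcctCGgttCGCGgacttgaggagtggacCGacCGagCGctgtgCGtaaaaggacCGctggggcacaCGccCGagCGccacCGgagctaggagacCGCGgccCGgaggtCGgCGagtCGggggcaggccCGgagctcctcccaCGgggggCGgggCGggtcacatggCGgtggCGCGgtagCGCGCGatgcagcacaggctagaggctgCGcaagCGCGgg
SNX10: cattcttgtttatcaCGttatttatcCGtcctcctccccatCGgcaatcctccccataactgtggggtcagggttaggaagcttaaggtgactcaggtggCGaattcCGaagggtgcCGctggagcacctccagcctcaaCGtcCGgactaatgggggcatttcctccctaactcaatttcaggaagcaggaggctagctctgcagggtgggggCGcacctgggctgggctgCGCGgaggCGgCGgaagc
PPP1R26: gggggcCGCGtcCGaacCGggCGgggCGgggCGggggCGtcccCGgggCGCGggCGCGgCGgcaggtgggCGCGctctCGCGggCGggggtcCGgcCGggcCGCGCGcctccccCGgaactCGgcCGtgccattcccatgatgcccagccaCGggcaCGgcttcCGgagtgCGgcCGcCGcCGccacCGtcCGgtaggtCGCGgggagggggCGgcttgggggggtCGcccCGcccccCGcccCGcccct
MAT1A: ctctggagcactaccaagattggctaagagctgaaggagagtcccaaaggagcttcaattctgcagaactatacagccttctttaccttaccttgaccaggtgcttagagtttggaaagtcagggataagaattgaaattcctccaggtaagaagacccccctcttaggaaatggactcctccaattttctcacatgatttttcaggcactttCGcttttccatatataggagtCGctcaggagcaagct

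The shown windows held 35 CpG for FAM213A, 13 for SNX10, 43 for PPP1R26 and 2 for MAT1A, against a median of 11 over the 27305 promoters of the table. A GC box (GGGCGG, either strand), present in 42.3% of all windows of this length, occurred in those of FAM213A and PPP1R26, and a CCAAT box (CCAAT, either strand), present in 33.0%, in that of MAT1A. The SNX10 window held neither. None of the 4 windows held an E-box (CACGTG, 6.49% of all windows) or the exact TATA box string TATAAA (either strand, 11.1%). Variants of that string were not searched, and the MAT1A window holds TATATA near its end. A promoter was found for 45 of the 57 genes (78.9%), under the 80% set as the minimum for a comparison of base composition over the whole set, so that comparison is void and was not made.

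Summed over the 57 genes, the WT libraries held 8129, 9022 and 9850 counts and the PARP3-/- libraries held 35, 40 and 35. Scaled for library size by TMM, the PARP3-/- total was 0.433% of that in WT. The WT level, had it been kept, would have given 94.1 to 3850 counts per gene over the PARP3-/- libraries, with a median of 253, so the depth was enough to see these transcripts. In bulk RNA, fewer expressing cells and less RNA per cell cannot be told apart. No read was counted in any PARP3-/- library for 19 genes. Of the other 38, the highest PARP3-/- library had 1 count for 21 genes, 2 for 7 and 3 for 10, and 11 genes had a read in every PARP3-/- library. All 57 were called lower by edgeR's quasi-likelihood test at an adjusted p under 0.05, where 3.33% of the 17144 tested genes were called lower and 1.36% higher, and nothing is read from that count since the same contrast chose the genes. With the replicate block the background was 12.5% lower and 11.8% higher, with DESeq2 3.84% and 2.09%, and at an adjusted p under 0.001 with a log2 fold change beyond 1 it was 0.443% and 0.035%, which 28 of the 57 passed.

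**Figure D1:**
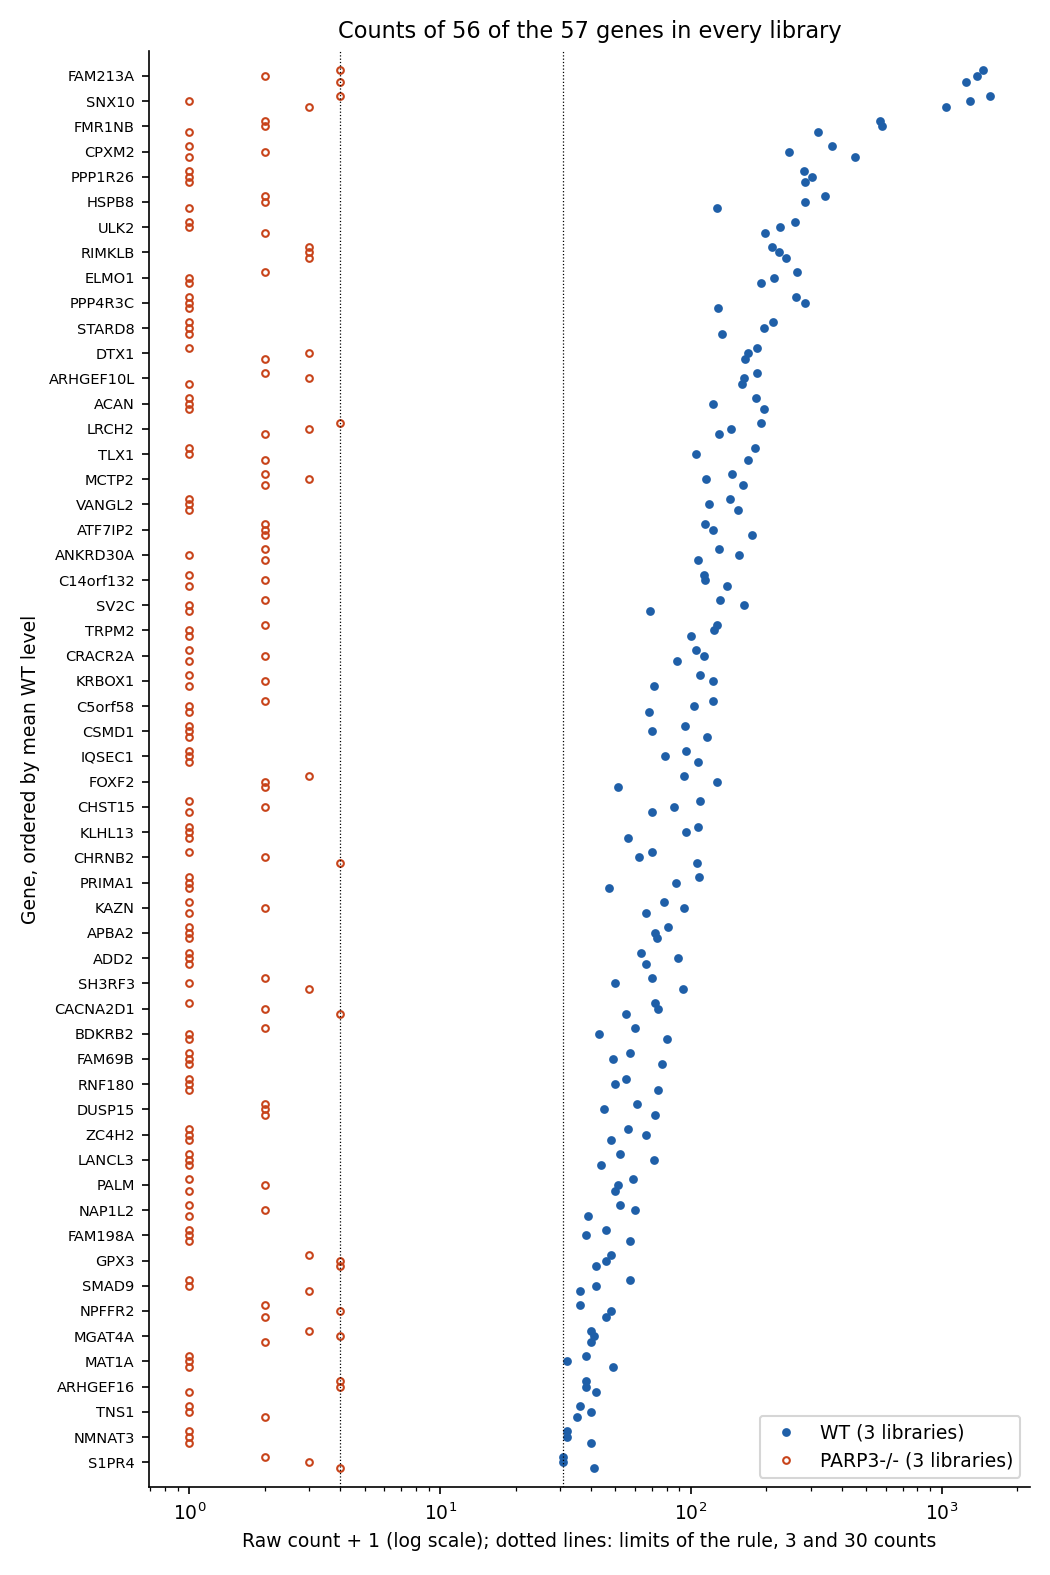
Raw count plus 1 on a log axis for 56 of the 57 genes, 1 row per gene in order of mean WT level, with filled blue points for the 3 WT libraries and open red points for the 3 PARP3-/- libraries. Dotted lines mark the limits that chose the genes, and a red point at 1 is a library with no read.

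Among the metabolic enzymes, 7 of the 57 genes, FAM213A stood first. FAM213A (chr10:80407829-80437115, plus strand) encodes a peroxiredoxin-like redox protein and had 1248, 1385 and 1458 counts in WT against 3, 1 and 3 in PARP3-/-. That is 34.2 ± 1.27 CPM (counts scaled to a common library size, SD, n = 3) in WT, which lay above 45.7% of the protein-coding genes expressed in WT, and a level 550.0-fold lower in PARP3-/- (95% exact interval 267 to 1369, counting error only). RIMKLB, a ligase that joins glutamate to N-acetylaspartate or citrate, had 238, 223 and 210 counts in WT and 2 in each PARP3-/- library. MAT1A, the liver form of the enzyme that makes S-adenosylmethionine, had 48, 31 and 37 counts in WT and 0 in all PARP3-/- libraries, a level at least 36.4-fold lower against a floor of 3 counts over the group. The mitochondrial NAD-synthesizing enzyme NMNAT3 was of the same kind, with 39, 31 and 31 counts against 0. The glycan enzymes CHST15, a sulfotransferase of chondroitin sulfate, and MGAT4A, which branches N-glycans, differed in what was left. CHST15 had 69, 85 and 108 counts in WT and 0, 1 and 0 in PARP3-/-, while MGAT4A had 39, 40 and 39 and then 1, 3 and 2. GPX3, the secreted glutathione peroxidase, kept the most relative to WT, with 41, 45 and 47 counts against 3, 3 and 2, a level 15.6-fold lower (interval 7.71 to 37.0).

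SNX10 led the 8 genes of the cytoskeleton, of vesicle sorting and of protein folding. SNX10 (chr7:26291895-26374329, plus strand), a sorting nexin of endosomes that is known for its role in osteoclasts, had 1043, 1294 and 1553 counts in WT against 2, 0 and 3, a level 732-fold lower (interval 313 to 2256). Per kilobase of transcript it was the highest of the 57, at 34.3 CPM per kb, while FAM213A was at 18.1. These genes together held 29.6% of all WT counts of the set. HSPB8, a small heat-shock protein of chaperone-assisted autophagy, had 126, 284 and 342 counts in WT and 0, 1 and 1 in PARP3-/-. Its WT replicate 1 stood well below the other WT libraries. The remaining genes were lower in WT and lie between 0.904 and 3.85 CPM. LRCH2, a leucine-rich repeat protein, had 129, 143 and 190 counts against 1, 2 and 3. KAZN, a periplakin-binding protein of cell junctions, had 65, 93 and 77 against 0, 1 and 0. APBA2, a neuronal adaptor that binds the amyloid precursor protein, and ADD2, a spectrin-binding adducin, had no read in PARP3-/-, with 71 to 80 and 62 to 88 counts in WT. PALM, a lipid-anchored protein of plasma membrane dynamics, had 49, 50 and 58 counts against 0, 1 and 0, and TNS1, a tensin of focal adhesions, had 34, 39 and 35 against 1, 0 and 0.

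The largest group was that of 13 receptors, channels, transporters and other membrane proteins, none above 3.54 CPM in WT. Calcium handling was represented by TRPM2, an oxidant-gated cation channel, CACNA2D1, an auxiliary subunit of voltage-gated calcium channels, and CRACR2A, a calcium sensor of store-operated entry. TRPM2 had 99, 123 and 126 counts in WT and 0, 0 and 1 in PARP3-/-. CACNA2D1 had 54, 73 and 71 against 3, 1 and 0, and CRACR2A 87, 112 and 104 against 0, 1 and 0. The nicotinic acetylcholine receptor subunit CHRNB2 had 105, 61 and 69 counts against 3, 1 and 0. PRIMA1, which anchors acetylcholinesterase in the membrane, had 46, 86 and 107 against 0. SV2C, a synaptic vesicle glycoprotein, had 68, 162 and 130 against 0, 0 and 1. These proteins are best known from nerve endings, and the RNA of each was below 3 CPM in WT.

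Of the G-protein coupled receptors, BDKRB2, the bradykinin B2 receptor, had 79, 42 and 59 counts in WT and 0, 0 and 1 in PARP3-/-. NPFFR2, the receptor for neuropeptide FF, had 45, 47 and 35 against 1, 3 and 1. S1PR4, a sphingosine 1-phosphate receptor of lymphoid cells, had 40, 30 and 30 against 3, 2 and 1, a level 15.7-fold lower (interval 6.96 to 43.8) with the lowest WT minimum of the 57. VANGL2, a core protein of planar cell polarity, had 153, 117 and 142 counts against 0, a level at least 129-fold lower. CSMD1, a large complement-regulating membrane protein, had 115, 69 and 94 against 0. MCTP2, a membrane protein with calcium-binding C2 domains, kept a few reads, with 160, 114 and 145 counts against 1, 2 and 1.

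Signalling enzymes and their regulators made up 14 of the genes, 5 of them acting on small GTPases. ELMO1, which activates Rac together with DOCK proteins during engulfment and migration, had 189, 213 and 265 counts in WT and 0, 0 and 1 in PARP3-/-. STARD8, a GTPase-activating protein, had 132, 194 and 212 against 0, a level at least 169-fold lower, and ARHGEF10L, a guanine nucleotide exchange factor, had 159, 162 and 182 against 0, 2 and 1. Activators and an inactivator of small GTPases were thus both in the set. IQSEC1, an exchange factor for ARF6, had 106, 78 and 95 counts against 0. ARHGEF16 had 41, 37 and 37 against 0, 3 and 3.

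Of the 9 genes for kinases, phosphatases and ubiquitin ligases, 5 had no read in PARP3-/- cells. PPP1R26, a regulatory subunit of protein phosphatase 1, was the most abundant gene of the 57 without any PARP3-/- read, with 283, 303 and 281 counts in WT and a level at least 272-fold lower. The X-linked PPP4R3C, related to the regulatory subunits of protein phosphatase 4, had 127, 283 and 261 counts against 0. KLHL13, a substrate adaptor of a cullin ubiquitin ligase active in mitosis, had 55, 95 and 106 counts, RNF180 73, 49 and 54, and FAM69B, a kinase-like protein of the endoplasmic reticulum, 76, 48 and 56, all against 0. ULK2, a kinase that starts autophagy, had 196, 226 and 258 against 1, 0 and 0. DTX1, a ubiquitin ligase that modulates Notch signalling, had 164, 168 and 183 against 1, 2 and 0. DUSP15, a phosphatase, and SH3RF3, a scaffold with a RING domain, were lower in WT, with 44 to 71 and 49 to 92 counts, and had at most 2 in any PARP3-/- library.

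Genes of transcription and chromatin numbered 7. TLX1, a homeodomain factor of spleen development, had 168, 104 and 179 counts in WT and 1, 0 and 0 in PARP3-/-. FOXF2, a forkhead factor of mesenchyme, had 50, 126 and 93 against 1, 1 and 2, and SMAD9, a BMP-responsive SMAD, had 35, 41 and 56 against 2, 0 and 0. ATF7IP2, related to a partner of the H3K9 methyltransferase SETDB1, had 174, 122 and 113 against 1 in each library. The X-linked NAP1L2, a histone chaperone of the NAP1 family, had 38, 59 and 51 against 0, 1 and 0, ZC4H2, a zinc finger protein of neural development on the same chromosome, had 47, 65 and 55 against 0, and KRBOX1, which holds a KRAB box, had 70, 121 and 108 against 0, 1 and 0.

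Secreted proteins were ACAN, CPXM2 and FAM198A. ACAN, the cartilage proteoglycan aggrecan, had 194, 122 and 181 counts in WT and 0 in PARP3-/-, at least 156-fold lower. CPXM2, a carboxypeptidase-like protein, had 452, 245 and 365 against 0, 1 and 0, with WT replicate 1 highest. FAM198A, a Golgi and secreted protein, had 56, 37 and 45 against 0. FMR1NB, a testis-restricted tumour antigen beside FMR1 on the X chromosome, came next after FAM213A and SNX10 in WT level, with 319, 575 and 565 counts, and 0, 1 and 1 in PARP3-/-. ANKRD30A, a breast differentiation antigen, had 106, 155 and 128 against 1, 0 and 1. Functions are not given here for C14orf132, LANCL3 and C5orf58, which had 43 to 138 counts in the WT libraries and at most 1 in PARP3-/-.

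The genes had low levels in WT, which the rule partly fixes, since a limit of 3 counts admits a strongly expressed gene only after a much larger fall. Mean WT levels had a median of 2.21 CPM against 39.4 CPM for all protein-coding genes reaching 30 counts in each WT library, and per kilobase of the deposited median transcript length the medians were 0.970 and 31.5. Above 5 CPM stood 10 genes, 22 lay at 2 to 5 CPM and 25 below 2 CPM. The coefficient of variation between WT replicates had a median of 20.1%, against 10.7% for all expressed genes, whose higher counts carry less counting error. For the 5183 expressed genes with WT levels within the range of the set, the median was 12.4%. Levels inside that range were not matched gene by gene, so the part of counting error in the remaining gap was not tested. WT replicate 1 held the highest of the 3 CPM values for 27 genes and the lowest for 23 (47.4% and 40.4%, against 40.8% and 48.0% of the expressed genes), and the highest value was more than 2 times the lowest for 7 genes.

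Low WT counts leave several genes close to the limits. Just inside, S1PR4 had 30 counts in its lowest WT library, NMNAT3 and MAT1A 31, TNS1 34, NPFFR2 and SMAD9 35, and ARHGEF16 and FAM198A 37. Just outside on the WT side were 6 genes with 25 to 29 counts in the lowest WT library, among them IRF5, an interferon regulatory factor, with 33, 28 and 28 counts in WT and 0 in PARP3-/-, and GFRA2, a GDNF family receptor, with 28, 32 and 44 against 0. On the PARP3-/- side 13 genes missed the limit with 4 to 6 counts in the highest library. TAS1R1, a taste receptor subunit, had 314, 324 and 274 counts against 5, 3 and 0, and SIRPA, the receptor for CD47, had 147, 250 and 260 against 1, 1 and 4.

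Levels in PARP3-/- relative to WT were spread over a wide range, and the 57 genes lay at its lower end. Of the 11338 expressed protein-coding genes, 11001 kept 50 to 200% of the WT level. Between 25 and 50% were 149 genes, between 10 and 25% 48, between 5 and 10% 23, between 1 and 5% 23, and below 1% 46. The 46 comprised 44 of the 57 genes, with TAS1R1 and SIRPA as the others. A further 9 of the 57 lay at 1 to 5% and 4 at 5 to 10%. The limits that chose the genes fix most of this division.

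**Figure D2:**
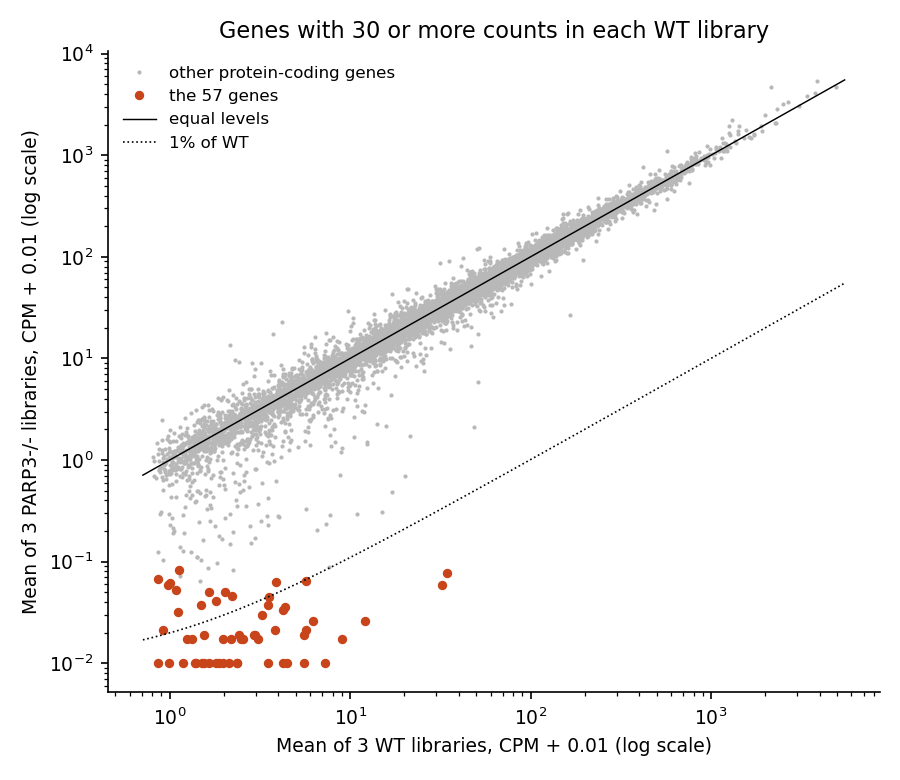
Mean level in 3 PARP3-/- libraries (y) against 3 WT libraries (x), each as CPM plus 0.01 on a log axis, for the 11338 protein-coding genes with 30 or more counts in each WT library. Grey points, most of them near the solid line of equal levels, are other genes, and red points are the 57; the dotted curve marks 1% of the WT level.

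The reverse pattern was rare. Under the mirrored limits 1 gene was silent in WT and active in PARP3-/-: PABPC5, an X-linked poly(A)-binding protein, with 0 counts in every WT library and 133, 163 and 157 in PARP3-/-, at least 160.5-fold higher.

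By the deposited Gene Ontology terms, present for 55 of the 57, proteins of the cell surface were common. The plasma membrane term covered 18 genes (31.6%, against 19.3% of the expressed protein-coding genes), signal transduction 8 (14.04% against 7.39%), G-protein coupled receptor activity 3 (5.26% against 0.803%) and ion transport 4 (7.02% against 2.34%). The nucleus term covered 15 (26.3% against 39.2%), mitochondrion 1 (NMNAT3, 1.75% against 12.2%), and translation 0 of 57 against 294 of the expressed genes. Cell adhesion covered ACAN alone (1.75% against 2.32%). Integrins (ITG), laminins (LAM), collagens (COL) and protocadherins (PCDH) had been left out of both sides by name, so this share does not describe adhesion genes in general. No test was made of these shares, and terms overlap. Both the 57 and the expressed genes lack the families left out by name. These include potassium channels (KCN), glutamate and GABA receptors (GRI, GRM, GABR) and adhesion G-protein coupled receptors (ADGR). Shares of receptors and channels before that removal were not computed. The gene bodies were long, with a median of 92.9 kb against 35.0 kb, and 27 (47.4%) exceeded 100 kb against 21.1% of the expressed genes. The expressed genes had a far higher WT level (median 39.4 CPM against 2.21 CPM). Neither the shares nor the lengths were compared at matched levels.

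The 57 genes lay on 20 chromosomes. The X chromosome held 9 (among them FMR1NB, PPP4R3C, STARD8, LRCH2, KLHL13, ZC4H2, LANCL3 and NAP1L2), which is 15.8% of the set and 2.26% of its 398 expressed protein-coding genes, against 0.503% over all chromosomes. Chromosome 10 followed with 6 of 429 (1.40%). Of the other expressed genes of the X chromosome, 13 of 389 were called lower (3.34%) and 7 higher, with a median log2 fold change of -0.02, against 2.89% lower over all chromosomes.

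**Figure D3:**
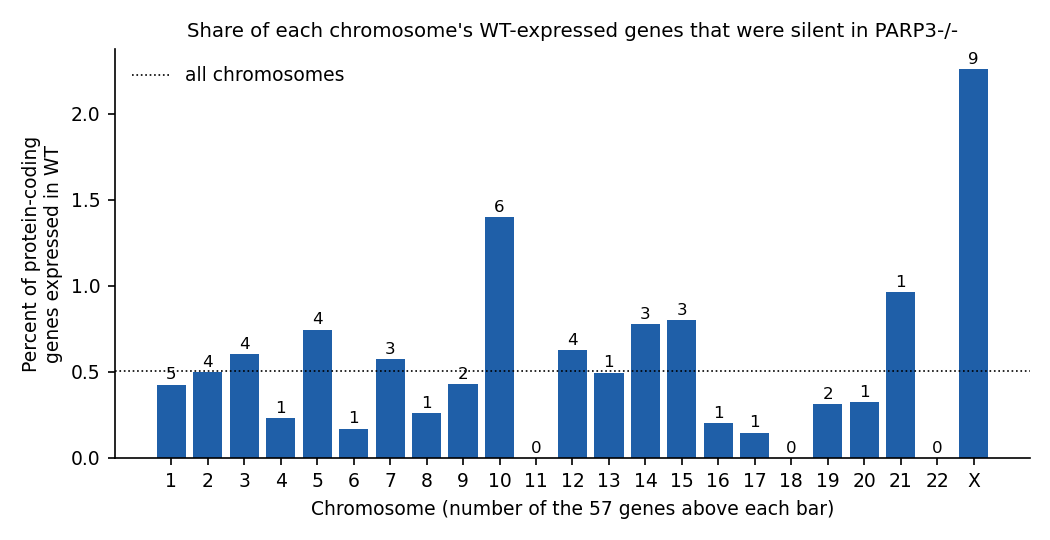
Bars, starting at 0, give the percent of each chromosome's protein-coding genes with 30 or more counts in each WT library that belong to the 57; the number above a bar is the count of such genes and the dotted line is the value over all chromosomes. The X chromosome is highest with 9 genes, and chromosomes 11, 18 and 22 have 0.

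Among neighbouring members of the set on the same chromosome, 4 of 37 pairs were less than 1 Mb apart, all without another listed protein-coding gene between them. KRBOX1 and FAM198A were 36.5 kb apart on chromosome 3, CPXM2 and CHST15 67.4 kb apart on chromosome 10, C14orf132 and BDKRB2 111 kb apart on chromosome 14, and MAT1A and FAM213A 118 kb apart on chromosome 10. The next 2 pairs were 1.21 and 1.22 Mb apart, the latter being PPP1R26 and FAM69B. Between PPP1R26 and FAM69B lay 18 tested protein-coding genes, of which 0 were called lower. The other 31 pairs were more than 2 Mb apart.

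To ask whether genes next to the silent ones moved with them, the nearest protein-coding gene on each side was examined. Members were passed over, so genes silent by the counts themselves, such as FAM213A beside MAT1A, are not among the neighbours; beyond that the choice used position only. There were 108 such genes at a median distance of 102 kb, and 71 had enough counts to be tested. Of these, 8 (11.3%) fell and 2 (2.82%) rose at an adjusted p under 0.05, beside 3.33% and 1.36% of all tested genes. Among the 8, CT83, DCAF8L2 and RASAL1 were below the minimum count of 10 in PARP3-/- replicates 2 and 3. They passed the filter on low counts only through WT, so only a fall could be called for them. The median log2 fold change of the 71 tested neighbours was -0.04, against -0.01 over all tested genes. With the replicate block 21 fell and 6 rose (29.6% and 8.45%, against 12.5% and 11.8%). Over every protein-coding gene within 500 kb, 18 of 357 fell (5.04%) and 5 rose (1.40%). Genes can neighbour more than 1 silent gene, and neighbours are not independent of each other.

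RASAL1, a Ras GTPase-activating protein whose 3′ end faces that of DTX1 across 0.791 kb, had 139, 114 and 159 counts in WT and 15, 9 and 4 in PARP3-/- (log2 fold change -3.75 ± 0.43, SE, adjusted p = 0.0045 with edgeR). The X-linked DCAF8L2, a substrate receptor of cullin ubiquitin ligases 127 kb from PPP4R3C, had 72, 98 and 99 counts against 1, 7 and 1 (-4.77 ± 0.44, adjusted p = 0.0018 with edgeR). EFNB1, an ephrin ligand 103 kb from STARD8 and also X-linked, had 229, 333 and 317 against 50, 72 and 56 (-2.20 ± 0.15, adjusted p = 0.00058 with edgeR). In each of these the genotypes did not overlap, although all retained reads. PARP11, another mono-ADP-ribosyltransferase 26.2 kb from CRACR2A, fell by 1.31 on the log2 scale, and TSPAN9, a tetraspanin on the other side of CRACR2A, by 0.96. FZD8, a Wnt receptor 1484 kb from ANKRD30A, fell by 0.82. CT83, an X-linked testis-restricted tumour antigen 1435 kb from KLHL13, had 14, 13 and 11 counts against 0, at least 11.9-fold lower. The genes that rose were IL13RA2, a decoy receptor for interleukin 13 at 90.6 kb from LRCH2, with 104, 123 and 112 counts against 347, 349 and 290, and ADAMTS3 at 133 kb from NPFFR2. The calls on PARP11 (without PARP3-/- replicate 2 or 3), CT83 (without WT replicate 2 or 3) and ADAMTS3 (without any of the 6 libraries, with median-of-ratios factors and without a filter) were lost, and 7 of the 10 calls held with each library left out.

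**Figure D4:**
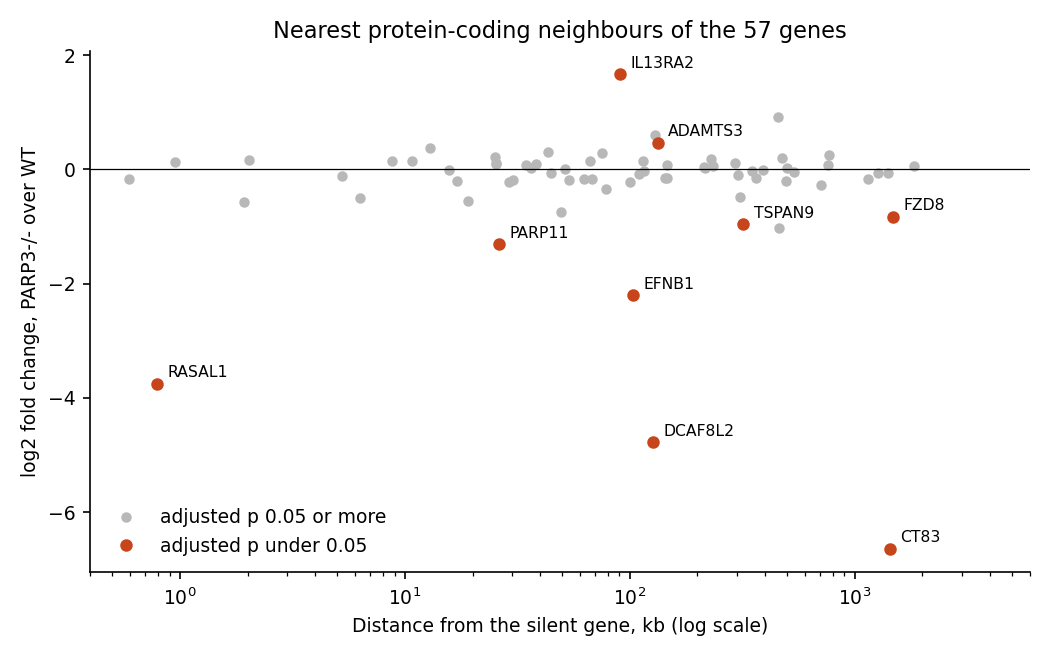
log2 fold change (PARP3-/- over WT, edgeR) of 70 of the 71 tested neighbours against their distance from the nearest of the 57 genes in kb on a log axis; red points with names passed an adjusted p of 0.05 and grey points did not. The value of CT83, which had no read in PARP3-/-, depends on the prior count of the fit; called and uncalled neighbours occur at short and long distance.

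Several close neighbours were not called. Within 10 kb lay 8 tested neighbours, of which RASAL1 alone was called (background 3.33% lower and 1.36% higher). With the block 3 were called lower and 2 higher (background 12.5% and 11.8%). CHRNB2 lies between ADAR, the RNA-editing deaminase at 2.04 kb, and UBE2Q1 at 8.75 kb. ADAR had 11980, 15030 and 14244 counts in WT and 11234, 17476 and 14911 in PARP3-/- (adjusted p = 0.381 with edgeR, and higher with the block at 0.0370). UBE2Q1 had 4460, 5088 and 4997 against 4112, 5981 and 4999 (adjusted p = 0.352 with edgeR, and higher with the block at 0.04999). TNIP1, an inhibitor of NF-kB signalling 0.952 kb from GPX3, had 1871, 2393 and 2197 against 1672, 2827 and 2195. UNC50 at 0.591 kb from MGAT4A had 2044, 2102 and 2086 against 1503, 2017 and 1708 (log2 fold change -0.16, adjusted p = 0.409 with edgeR, 0.0373 with the block). HAPLN3, a hyaluronan and proteoglycan link protein 1.93 kb from ACAN, had 496, 801 and 868 against 348, 544 and 466 (-0.58, adjusted p = 0.123, and 0.00174 with the block). FMR1, 30.2 kb from FMR1NB, had 2654, 3714 and 3540 against 2081, 3262 and 2852 (adjusted p = 0.424 with edgeR, and lower with the block at 0.0302).

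Transcripts that overlap the silent genes gave a further view of the same loci. Within 5 kb lay 47 genes of other biotypes, 8 of them tested, and 2 fell (25%, background 3.33%) while 0 rose (background 1.36%; 3 lower with the block and with DESeq2, which also called 0 higher; 2 of 47 had an unadjusted p under 0.05). Both lie inside a silent gene on its own strand, where reads cannot be assigned to 1 of them with certainty: AC005831.1 in CRACR2A had 16, 19 and 22 counts against 0, and LINC00993 in ANKRD30A had 18, 13 and 13 against 0. With no read in PARP3-/-, both passed the filter on low counts through WT alone. Without WT replicate 3 neither call held, and that of LINC00993 was also lost without PARP3-/- replicate 2. The other 6 tested were not called. On the strand of the silent gene, RN7SL314P in ANKRD30A had 23, 5 and 11 counts against 20, 15 and 9, and AC084880.1 in HSPB8 had 14, 9 and 12 against 10, 12 and 3. On the opposite strand, SNHG7, a host gene of small nucleolar RNAs that runs antisense to FAM69B, had 2261, 1624 and 1575 counts in WT and 1251, 1460 and 1266 in PARP3-/- (log2 fold change -0.37 ± 0.21, adjusted p = 0.469 with edgeR, 0.0067 with the block), where FAM69B had 0. AC097103.2, antisense to NMNAT3, had 49, 34 and 32 against 30, 32 and 28 (adjusted p = 0.774 with edgeR), where NMNAT3 had 0. Among antisense genes too low to test, TLX1NB beside TLX1 had 3, 5 and 4 counts against 0, 0 and 1. Whether the strands differ was not tested. The libraries were strand-specific, so antisense reads were kept apart from those of the silent genes, as far as the counting used strand.

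Relatives by name were examined next. Genes sharing a symbol stem with a member numbered 387, of which 324 were tested, and 10 fell (3.09%, background 3.33%) while 7 rose (2.16%, background 1.36%), shares near the background. With the block 41 fell and 57 rose (12.7% and 17.6%, background 12.5% and 11.8%). A shared stem is a shared name, which is usually but not always a shared ancestry. In stems of at most 10 genes, 36 of the 57 had a relative, 29 had one with at least 30 counts in every PARP3-/- library, and 28 had one above them in WT per kilobase. The following were picked after their values were seen. MAT2A, the widely expressed counterpart of MAT1A, had 7169, 7948 and 7288 counts in WT and 5286, 7469 and 6093 in PARP3-/-. VANGL1 had 2148, 3725 and 3407 against 2040, 4273 and 3362, and ELMO2 2861, 3205 and 2945 against 2322, 3487 and 2825. For NMNAT3, the nuclear form NMNAT1 had 485, 399 and 437 against 363, 414 and 348. ULK1, the counterpart of ULK2, had 981, 832 and 907 against 852, 1281 and 974, and was not called (adjusted p = 0.354 with edgeR, 0.0322 with the block).

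A few relatives fell with their namesakes. DTX4 fell beside DTX1, with 49, 61 and 59 counts in WT against 4, 3 and 4 (log2 fold change -3.80 ± 0.27, SE, adjusted p = 0.000612 with edgeR). ANKRD6, which shares only a stem with ANKRD30A, fell by 5.02 on the log2 scale. TLX2 was low in both genotypes, with 10, 11 and 18 against 2, 1 and 1, and passed the test. DTX4 and TLX2 had at most 4 counts in any PARP3-/- library, so they passed the filter on low counts through WT alone. ARHGEF6, RNF125, PPP1R1B, PPP1R14C and GPX8 fell by 0.43 to 2.68 on the log2 scale. RNF17, a testis-expressed Tudor domain gene with the stem of RNF180, rose by the most, with 168, 166 and 164 counts against 695, 1034 and 844 (2.45 ± 0.10, adjusted p = 9.83e-05 with edgeR). The others that rose were SMAD7, an inhibitor of SMAD signalling (0.42), STARD9 (0.49), ARHGEF19 (0.44), ANKRD1 (0.98), CHST9 (0.92) and CHST11 (0.49). When single libraries were left out, the calls on DTX4, ANKRD6, RNF125 and RNF17 were among the 6 of 17 that held each time and the other 11 were lost at least once, each of them without PARP3-/- replicate 2, without PARP3-/- replicate 3 and without WT replicate 3.

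No gene of the silencing machinery was called in the main test. Of 65 genes of H3K9 and H3K27 methylation, DNA methylation, histone deacetylation and the HUSH complex, all were tested and 0 were called by edgeR in either direction, with 5 at an unadjusted p under 0.05 and fold changes from -0.48 (TET1) to 0.38 (SIN3A) on the log2 scale. DESeq2 called 1 lower and 2 higher. The methyltransferase G9a (EHMT2) had 4442, 4752 and 4867 counts in WT and 3690, 5527 and 4656 in PARP3-/- (log2 fold change 0.06 ± 0.07, SE, adjusted p = 0.762 with edgeR). Its partner EHMT1 differed by 0.03. With the block 5 were called lower (7.69%, background 12.5%) and 10 higher (15.4%, background 11.8%). Those lower were CBX3, an H3K9me-binding protein that is also the gene next to SNX10 (-0.34), DNMT3B (-0.35), TET1 (-0.48), MBD2 (-0.15) and PPHLN1 (-0.17), and those higher included the Polycomb genes EZH2 (0.20), JARID2 (0.34), CBX2 (0.27) and PCGF2 (0.32). RNA levels carry no information on the activity of these proteins or on the marks they leave, and chromatin was not measured in these files.

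Markers of other cell types were set beside the set as a whole. Of the fibroblast markers DCN fell (log2 fold change -1.05 ± 0.14, SE, adjusted p = 0.00919 with edgeR), while LUM and PDGFRA were not called, and the list summed to 28.5 to 36.8 CPM in WT and 25.02 to 47.2 CPM in PARP3-/-. Of the 8 glioma markers S100B fell (-1.06 ± 0.19, adjusted p = 0.0256 with edgeR), and the list summed to 5337 to 5806 CPM and 5070 to 6057 CPM. Both calls were lost without WT replicate 3 or PARP3-/- replicate 2 or 3. With the block 4 of the 8 glioma markers were called lower, S100B, OLIG2 (-0.52, adjusted p = 0.00152 with edgeR and the block), SOX2 (-0.32, 0.00516) and CD44 (-0.25, 0.00721). DCN and the epithelial KRT18 (-0.41, 0.00053) were also lower with the block, and 0 markers were called higher. Over all tested genes the block called 12.5% lower and 11.8% higher. In edgeR without the block OLIG2 (adjusted p = 0.0800), SOX2 (0.335), CD44 (0.224) and KRT18 (0.0808) were not called. The immune list summed to at most 0.597 CPM and the endothelial list to at most 0.821 CPM in any library, the epithelial list, nearly all KRT18, to 135 to 156 CPM against 97.1 to 118 CPM, and the neuron list to 6.46 to 7.91 CPM against 7.26 to 7.43 CPM. Their part in the silence of the 57 genes was not tested.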

How the data were processed

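RNA-seq of 3 WT and 3 PARP3-/- LN229 libraries was used. The authors prepared ribosome-depleted stranded libraries, trimmed reads with cutadapt 1.10, removed ribosomal and spike-in reads with Bowtie2 2.2.8, aligned to hg38 with STAR 2.5.3a and counted reads per Ensembl 91 gene with HTSeq 0.6.1p1 in union mode, which drops reads on overlapping genes. The labels name polyA RNA instead of total RNA. The deposited raw counts were the values analysed, together with the deposited median transcript length per gene. Deposited normalized values and the authors' own comparison (fold changes and p-values) were not used.

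Counts were tested in R 4.3.3 with edgeR 4.0.16 (quasi-likelihood, TMM, filterByExpr with a minimum count of 10, Benjamini-Hochberg), over all genes and without a block. CPM values use TMM-scaled library sizes. Alternatives were DESeq2 1.42.0, median-of-ratios factors, no filter, a stricter call, the replicate block and each library left out. Replicate numbers, shared between genotypes in the labels, may pair the samples. Deviations from group means correlated at 0.676, 0.517 and 0.242 for equal numbers, all above the minimum of 0.1. Unequal numbers 2 and 3 also correlated (0.410 and 0.264), both above the 0.242 of replicate 3, so the pairing of these is unsettled. The main test left the pairing out. With the block far more genes were called (12.5% lower and 11.8% higher, against 3.33% and 1.36%), so calls depend on this choice. Chi-square per degree of freedom between replicates ran from 4.12 to 105, highest for pairs with replicate 1, so no library was a duplicate. Of 200 genes changed in simulated counts, edgeR recovered 100 of 100 at a log2 change of 4 and 100 of 100 at 2, with 15 false calls among 16896. The simulation used a single dispersion for all genes and no replicate effect, and changed only genes with a mean of at least 30 counts. Recovery at the spread and low counts of the real libraries was not measured.

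Fold intervals are exact binomial (95%) on summed counts and cover counting error only, as does the floor of 3 counts over the 3 PARP3-/- libraries together, 0.0267 CPM. The members and the gene lists were chosen with earlier results of these data known. The genes named in full were the 25 of highest WT CPM, the 10 of highest level per kb, those 8 nearest each limit, and neighbours, noncoding genes or relatives that were called; roles and further names were added after values were seen. A few genes that enter the counts are not reported here by name or drawn with a name. Relatives were found by symbol stem, since no protein table was used here. Promoters came from the RefSeq table, strands from GENCODE 44. The label of the disrupted exons and the guides named in the methods differ in extent, and the clone sequenced is not named in the sources used here.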

Additional observations from a re-analysis of the deposited data

How the results depend on the processing

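The number of silent genes was 57 under the limits used and 77 with at least 20 WT counts, 33 with at least 60, 21 with at least 100, 19 with 0 counts in every PARP3-/- library, 80 with at most 10, 47 on counts scaled to the mean library size and 68 with no gene family left out. Leaving out 1 library gave 57 to 63. The reverse set stayed at 1 gene under every alternative run. All 57 were called under edgeR, DESeq2, other size factors, no filter, the replicate block and each library left out (57 to 57), and 28 under the stricter call (adjusted p under 0.001 and a log2 change beyond 1). The same contrast chose the genes, so nothing is read from these calls.

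Neighbours called lower numbered 8, and 21 with the replicate block, 1 under the stricter call, 18 within 500 kb and 7 to 11 with 1 library left out. Neighbours called higher numbered 2, and 1 with median-of-ratios factors, 1 without a filter, 6 with the replicate block, 0 under the stricter call, 5 within 500 kb and 1 to 1 with 1 library left out. Nearby noncoding genes called lower numbered 2, 0 under the stricter call, and 0 to 2 with 1 library left out; those called higher were 0 to 0. Relatives called lower numbered 10, and 41 with the replicate block, 2 under the stricter call, 3 in families of at most 10 genes (added after seeing the data) and 5 to 12 with 1 library left out. Relatives called higher numbered 7, and 13 with DESeq2, 57 with the replicate block, 1 under the stricter call, 2 in the small families and 1 to 5 with 1 library left out. Repressor genes called lower numbered 0, 1 with DESeq2 and 5 with the replicate block, and those called higher 0, 2 and 10; both were 0 to 0 with 1 library left out. The cause of these differences was not tested. Relatives by protein identity of at least 60% were not run, since no protein table was used here. The lower bounds on folds rest on 3 counts over the PARP3-/- libraries together (0.0267 CPM).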
